A study of Homo sapiens with 15 samples.

Results

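Martinostat treatment of K-562 cells brought up 359 protein-coding genes that were close to unread in untreated cells. K-562 is a human cell line grown from chronic myeloid leukemia, and martinostat is an inhibitor of histone deacetylases (HDACs). The genes were chosen from the measured values. Each was a protein-coding gene with at most 3 counts summed over the 3 untreated libraries, and each had a mean of at least 2 CPM (a gene's count per 1e6 counts of its library) over the 3 libraries at 1 µM. NOVA2, SNCB, ALPG and BIK were left out by the same rule. Of 19942 protein-coding genes among the 60605 genes counted, 5309 met the limit on untreated counts and are called silent here, and 359 of these (6.76%) reached the level at 1 µM. The study sequenced polyA RNA of unaltered K-562 cells in 5 groups of 3 libraries, each labelled as a biological replicate: untreated cells, and cells given martinostat at 0.15, 0.25, 0.5 or 1 µM for 24 h. All groups were cultures of 1 cell line, so the tissue names below say where a gene is known to be used and not which cells were present.

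Histone acetylation is set by enzymes that add the acetyl mark and by the HDACs, which take it off again. In most tissues a large share of genes is kept unread, each cell type using its own set, and deacetylated histones are one of the features of such genes. An HDAC inhibitor leaves histones more acetylated, and compounds of this class are known to raise the RNA of genes from unrelated tissues in tumor cell lines. In a bulk culture, more cells with the RNA and more RNA per cell cannot be told apart.

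Library totals lay between 23755510 and 32805574 counts. Low counts in the table were more often even than odd (50354 values of 2 against 30239 values of 1 and 15531 of 3), so counting intervals that treat each count as a separate molecule are too narrow. All 18 reference genes of erythroid leukemia cells were detected in untreated cells, with means from 0.135 CPM (HBE1) to 982 CPM (TFRC). Their median level was 189 CPM in untreated cells and 182, 131, 27.6 and 29.0 CPM in order of dose, and the part of this fall in the values of the switched-on genes was not tested. On the third principal component the third libraries at 0.25 and 0.5 µM (scores of 70.1 and 75.4) stood apart from the other 13 (-42.5 to 16).

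Switched-on genes made up almost none of the RNA of untreated cells and a larger share at 0.15, 0.25 and 0.5 µM in turn. Summed over the 359 genes, the level was 3.16 ± 0.443 CPM (SD, n = 3) in untreated cells. At 0.15 µM it was 805 ± 52.3 CPM and at 0.25 µM 1589 ± 47.2. It reached 2440 ± 238 CPM with 0.5 µM and 2496 ± 39.9 with 1 µM. The groups at 0.15, 0.25 and 0.5 µM did not overlap, while the range at 1 µM (2453 to 2533 CPM) lay inside that at 0.5 µM (2258 to 2710 CPM). That overlap rests on the third library at 0.5 µM, and without it the range at 0.5 µM (2258 to 2354 CPM) lay below that at 1 µM. In untreated cells between 49 and 59 of the genes had any count in a given library, against 353 or 354 at 0.15 µM, and all 359 had more than 3 counts over the 3 libraries at 0.15 µM. Most of the genes stayed at a modest level: the median at 1 µM was 4.01 CPM, 218 lay below 5 CPM and 60 reached 10 CPM. The 20 highest genes held 28.0% of the summed level at 1 µM.

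**Figure D1:**
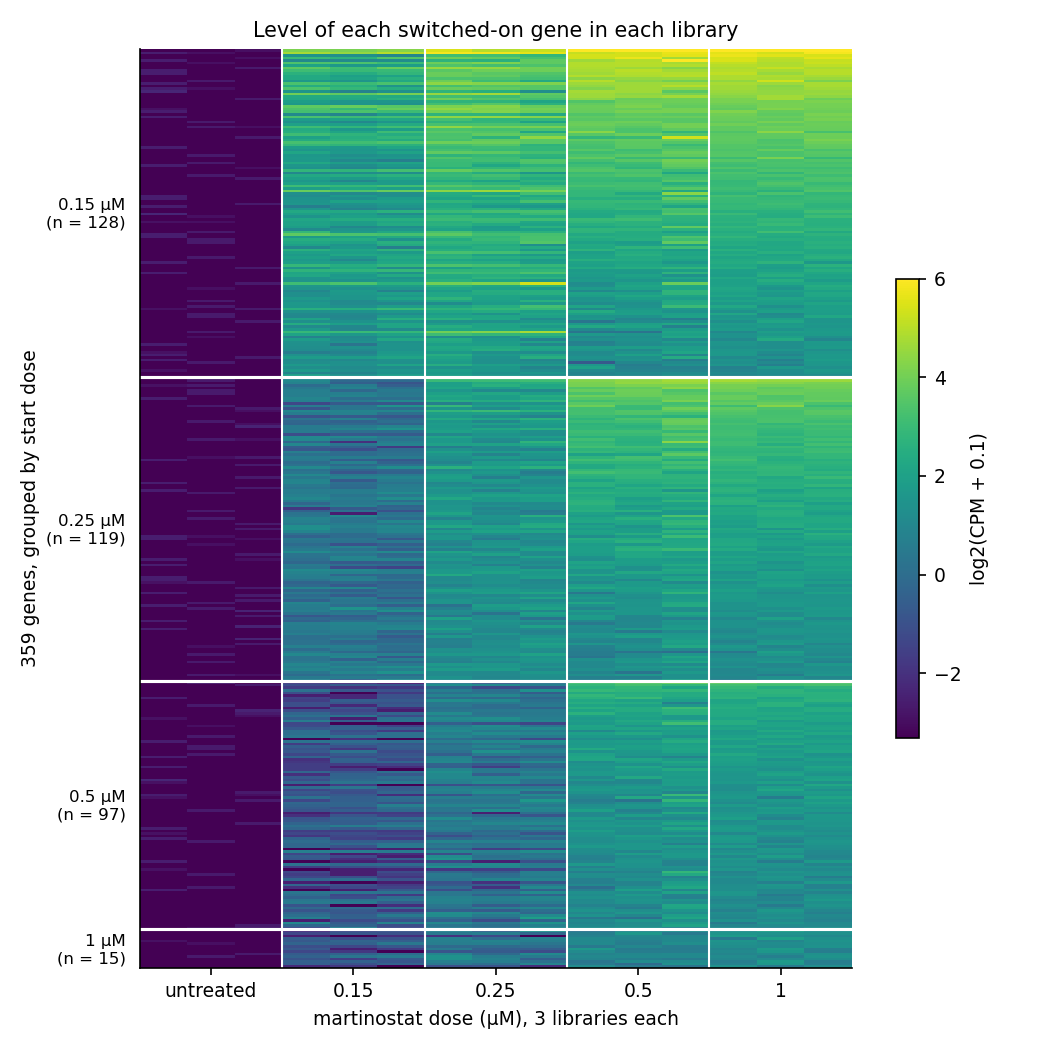
Level of each of the 359 switched-on genes (rows, grouped by the dose at which the mean first reached 2 CPM and ordered by the level at 1 µM) in each of the 15 libraries (columns), as log2(CPM + 0.1) in colour. The untreated columns are dark throughout, and the columns at 0.5 and 1 µM are close, with a median ratio of 1.02 between the means at 1 and 0.5 µM (1.08 without the third library at 0.5 µM).

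Of the 359 genes, 209 had 0 counts in all 3 untreated libraries, 23 had 1, 105 had 2 and 22 had 3. For the 209 genes at 0, the level at 1 µM was at least 64.05-fold to at least 1517-fold higher than a floor of 3 counts over the untreated group (0.0316 CPM), with a median bound of 123. For the 150 genes with 1 to 3 untreated counts, the exact 95% lower limits of the ratio to the untreated level ran from 21.3 to 1650, and these limits cover counting error only. These sizes follow from the way the genes were chosen and carry no test. Just inside the level limit lay ITGA9 (2.00 CPM) and PRDM7 (2.01 CPM), and just outside lay DENND2A (1.99 CPM) and GUCY1B1 (1.96 CPM). At the limit on untreated counts, ADGRG1 and KIF26A entered with 3 counts, and COL6A2 (105 CPM at 1 µM) and TMEM59L (104 CPM) stayed out with 4.

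The dose at which a gene started was read as the lowest dose with a mean of at least 2 CPM. By this reading the first class (0.15 µM) held 128 genes, the second (0.25 µM) 119, the third (0.5 µM) 97 and the last (1 µM) 15. Start dose went with level: the median level at 1 µM was 6.76 CPM in the first class, 4.36 in the second, 2.93 in the third and 2.23 in the last. A high gene can cross a fixed limit sooner, and the part of level in the start classes was not tested. Genes of the first class held a median of 63.5% of their level at 1 µM already at 0.15 µM, against 25.5% for those starting at 0.25 µM, 14.4% for those starting at 0.5 µM and 18.3% for those starting at 1 µM. The classes are cut from a continuous range: 79 of the 231 later starters were at 1.5 CPM or more 1 dose earlier, and all 15 genes of the last class were at 1.52 CPM or more at 0.5 µM. Without the third library at 0.5 µM the last class held 26 genes, and without the third libraries at both 0.25 and 0.5 µM it held 27. With a start at 10% of a gene's own level at 1 µM, these classes held 310, 45, 4 and 0 genes.

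The highest genes that started at 0.15 µM came from unrelated tissues. COL5A3, a fibrillar collagen chain of connective tissue, was the highest of all 359. Its levels were 18.0, 17.5 and 19.8 CPM at 0.15 µM, 44.1, 31.4 and 37.0 at 0.25 µM, 78.3, 85.2 and 117 at 0.5 µM and 96.2, 93.9 and 100.5 at 1 µM, against 1 count in the 3 untreated libraries. No library of one dose overlapped those of another up to 0.5 µM, and the libraries at 0.5 and 1 µM overlapped. ADGRG1, an adhesion G protein-coupled receptor known from the developing cortex, reached its highest mean at 0.25 µM, with 26.7, 22.1 and 31.2 CPM at 0.15 µM, 58.9, 54.9 and 49.0 at 0.25 µM, 36.6, 41.2 and 51.2 at 0.5 µM and 49.5, 40.5 and 59.0 at 1 µM. The libraries at 0.15 µM lay below all others, and those at 0.25, 0.5 and 1 µM overlapped. DISP3, a membrane protein of the Dispatched family, had 0 untreated counts and went from a mean of 2.3 ± 0.402 CPM (SD, n = 3) at 0.15 µM through 8.23 at 0.25 µM to 47.9 ± 5.39 at 1 µM, at least 1517-fold above the untreated floor. CYP4F2, a liver and kidney enzyme that oxidises fatty acids, gave 2.02, 2.11 and 2.2 CPM at 0.15 µM and 24.7, 30.5 and 82.4 at 0.5 µM, and belongs to a family of near-identical genes among which reads can be split. Its mean at 0.5 µM was 45.8 CPM with the third library and 27.6 without it, on either side of the 37.3 CPM at 1 µM.

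The genes that started at 0.25 µM were led by a liver transcription factor. CREB3L3, which sits in the endoplasmic reticulum of liver and gut cells until it is cleaved, gave 1.91, 1.93 and 1.42 CPM at 0.15 µM, 10.1, 12.2 and 11.8 at 0.25 µM, 39.0, 41.7 and 42.5 at 0.5 µM and 45.6, 33.5 and 45.5 at 1 µM. The 3 libraries of each dose up to 0.5 µM lay apart from those of the next, and those at 0.5 and 1 µM overlapped. ARHGAP29, a GTPase-activating protein, had a mean of 1.2 ± 0.646 CPM at 0.15 µM, 8.19 ± 0.432 at 0.25 µM and 22.2 ± 3.44 at 0.5 µM. CCNA1, the cyclin used in male meiosis, gave 1.69, 0.629 and 0.44 CPM at 0.15 µM, 3.75, 5.26 and 5.75 at 0.25 µM, 17.5, 22.4 and 23.5 at 0.5 µM and 20.4, 19.5 and 17.5 at 1 µM and had no untreated count. RGL1, an exchange factor for Ral GTPases, moved from 0.966 CPM at 0.15 µM through 4.72 at 0.25 µM to 16.4 at 1 µM, and GPR50, a brain receptor related to the melatonin receptors, from 1.3 through 4.31 to 15.2 CPM.

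The genes that started at 0.5 µM were by this reading under 2 CPM at both lower doses, and some were near 0 there. IRGM, an immunity-related GTPase linked to autophagy, gave 0.221, 0.148 and 0.0677 CPM at 0.15 µM, 1.31, 0.572 and 1.16 at 0.25 µM, 9.18, 11.8 and 14.3 at 0.5 µM and 12.7, 10.5 and 10.6 at 1 µM. The lowest library at 0.5 µM lay far above the highest at 0.25 µM, and those at 0.5 and 1 µM overlapped. ELAVL3, an RNA-binding protein of neurons, gave 0.221, 0.148 and 0.203 CPM at 0.15 µM, 0.713, 0.305 and 0.417 at 0.25 µM, 6.23, 7.11 and 4.32 at 0.5 µM and 7.57, 5.2 and 6.36 at 1 µM, with no untreated count. WNT9B, a secreted Wnt ligand known from kidney tubule formation, stood at 1.98 ± 0.43 CPM at 0.25 µM, just under the limit, and at 7.91 ± 1.24 at 0.5 µM. OLFM1, a secreted glycoprotein of the brain, had means of 0.19, 0.861, 5.23 and 6.11 CPM from the lowest dose to the highest. MT1E, a metallothionein that binds zinc and copper, had means of 1.7 CPM at 0.25 µM and 7.1 at 0.5 µM, and its coding sequence is close to that of other metallothioneins.

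The 15 genes that reached 2 CPM at 1 µM alone were low throughout. KRT86, a keratin of hair, had a mean of 1.77 ± 0.591 CPM at 0.5 µM and 2.78 ± 0.673 at 1 µM. TAFA4, a small secreted protein of sensory neurons, stood at 1.92 and 2.58 CPM at these doses, CCDC160 at 1.93 and 2.49, and SLC19A3, a thiamine transporter, at 1.86 and 2.41. HRH3, the histamine receptor of brain neurons, differed from these in its course, with 0.0735, 0 and 0.135 CPM at 0.15 µM, 0.15, 0.305 and 0 at 0.25 µM, 1.6, 1.87 and 1.83 at 0.5 µM and 3.26, 2.29 and 1.93 at 1 µM. It was near 0 at the 2 lower doses and all 6 libraries at 0.5 and 1 µM were at 1.60 CPM or more.

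**Figure D2:**
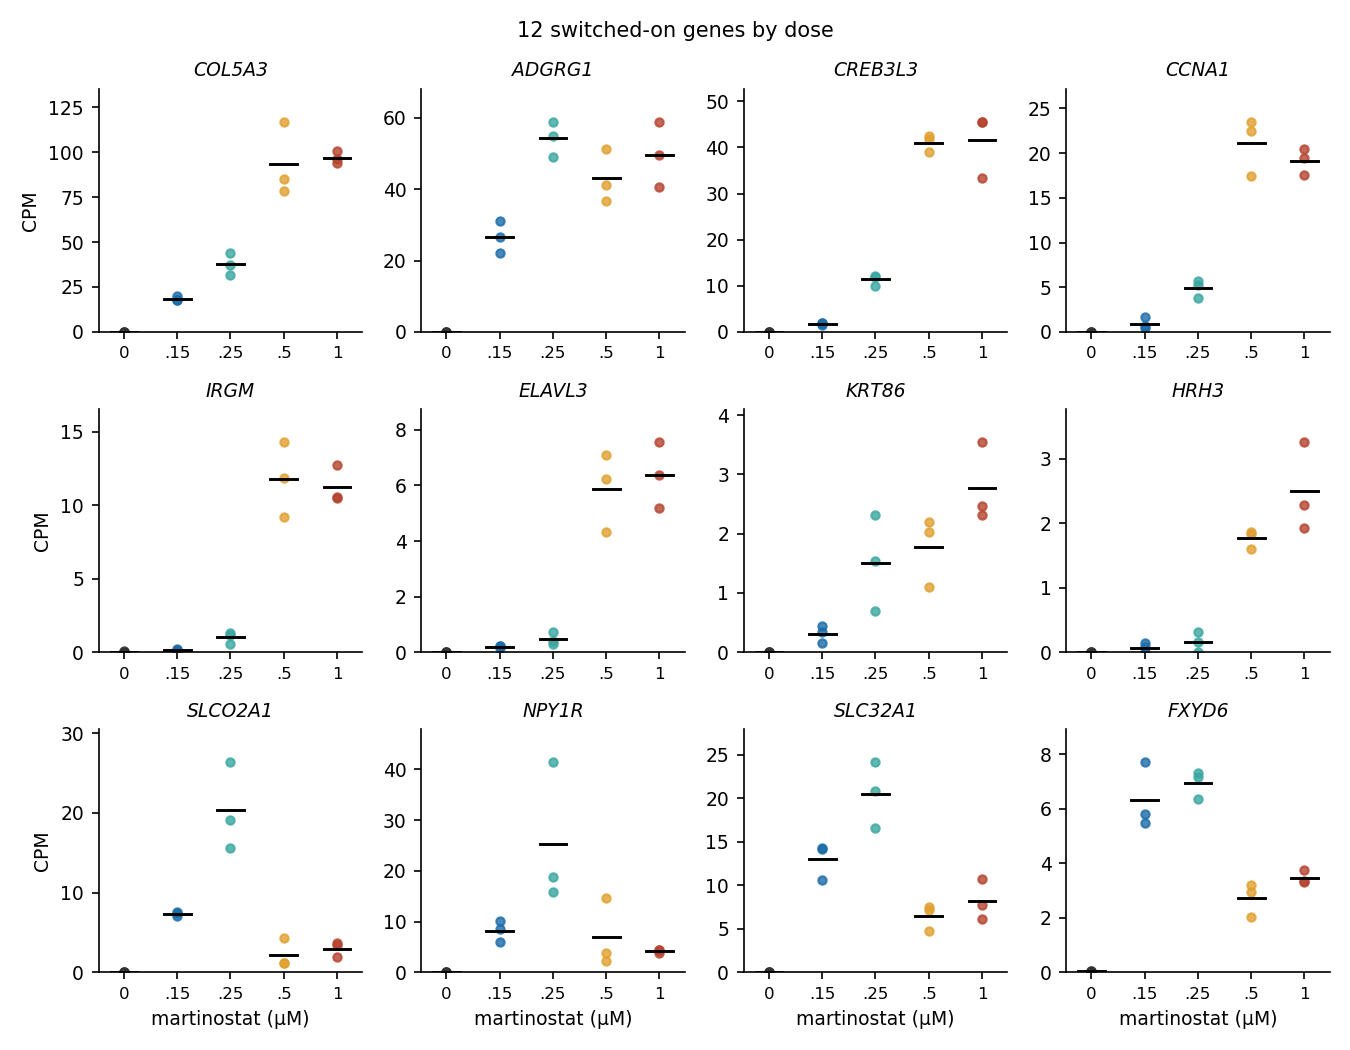
CPM (vertical axes, each from 0) of 12 switched-on genes by martinostat dose in µM (0 is untreated). Each point is a library (n = 3 per dose) and each bar the mean. The top and middle rows show genes that start at 0.15 (COL5A3, ADGRG1), 0.25 (CREB3L3, CCNA1), 0.5 (IRGM, ELAVL3) and 1 µM (KRT86, HRH3), and the bottom row 4 genes whose 3 libraries at 0.25 µM all lie above those at 0.5 µM.

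Levels of different genes can be compared only per length. Divided by the length of the gene's merged exons in kb, the highest levels at 1 µM belonged to the short genes MT1G, a metallothionein (35.6 CPM per kb), and PRR20G (26.3), both from families of near-identical copies. They were followed by CREB3L3 (15.7), KLK4 (15.0), a secreted protease of enamel and prostate, and COL5A3 (14.3), while ADGRG1 stood at 5.51 and ARHGAP29, with 18.4 kb of exon, at 1.34 CPM per kb. The 359 genes were longer than the silent genes that stayed under 2 CPM, with a median of 4.61 against 2.44 kb of exon, and CPM itself grows with length.

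Because the sequence around the start was not used to choose the genes, it was compared between the sets. The window ran from 250 bases before to 50 bases after the start of the canonical GENCODE transcript in hg38. Switched-on genes had a median of 69.7% G and C in this window (quartiles 62.2 and 75.3, 359 genes), silent genes that stayed low 54.0% (44.3 and 63.7, 4949 genes), and genes at 1 CPM or more in untreated cells 66.7% (60.3 and 73.0, 11167 genes). With olfactory and taste receptors, keratin-associated proteins, beta-defensins and interferons alpha left out, the silent genes that stayed low had a median of 56.0%. Some windows had at least 60% G and C and at least 0.6 of the CpG pairs that base composition predicts. Such windows were held by 64.3% of the switched-on genes and 24.4% of the silent genes that stayed low. The share was 72.0% for genes at 1 CPM or more in untreated cells and 54.8% for all protein-coding genes. Read the other way, 231 of 1439 silent genes with such a window were switched on (16.1%) and 128 of 3869 with another window (3.31%). By start class, from the lowest dose to the highest, the share with such a window was 68.0%, 61.3%, 66.0% and 46.7% (7 of 15). These are counts over genes of the same libraries and are given as a description.

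**Figure D3:**
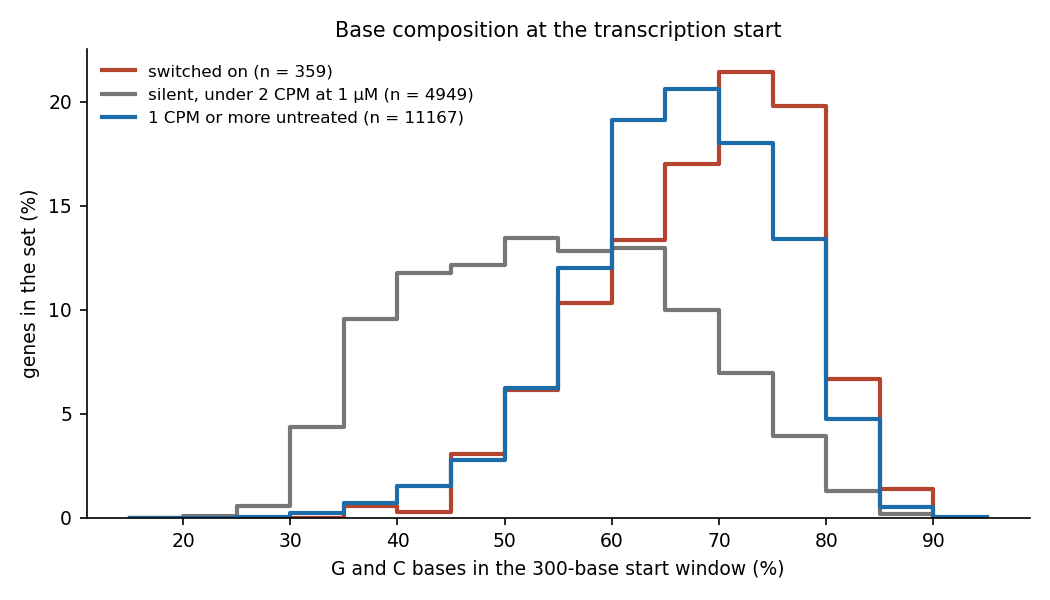
Share of genes (vertical axis, % of the set) by the percentage of G and C in the 300-base window at the transcription start (horizontal axis, bins of 5 percentage points) for the switched-on genes, the silent genes that stayed under 2 CPM at 1 µM and genes at 1 CPM or more in untreated cells. The curve of the switched-on genes (median 69.7%) lies with that of the used genes (66.7%) and to the right of that of the other silent genes (54.0%).

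Of short motifs searched on both strands, the GC box (GGGCGG) was found in 77.4% of the windows of switched-on genes, 33.5% of those of silent genes that stayed low and 61.4% of those of all protein-coding genes. The TATA box letters (TATAAA) were in 7.24%, 19.3% and 9.66%, and the CCAAT letters in 34.0%, 37.3% and 36.1%. By start class, in order of dose, 24.2%, 33.6%, 46.4% and 40.0% (6 of 15) held CCAAT. The AP-1 letters (TGANTCA) were in 6.41% of the windows of switched-on genes and the GATA letters (AGATAAG) in 1.39%, against 5.42% and 1.89% over all protein-coding genes. The cAMP response element (TGACGTCA) was in 1.39% against 2.70%, and the core of the RE1 element, bound by the repressor REST of neuronal genes, in 0.557% against 0.0652%, which for the switched-on genes is 2 of 359. Among genes at 1 CPM or more in untreated cells, the shares were 75.7% for the GC box, 4.96% for TATAAA and 37.0% for CCAAT. They were 3.64% for the AP-1 letters, 1.06% for GATA, 3.70% for the cAMP response element and 0.00895% for the RE1 core. Matches of different motifs may overlap, and a match is a string of letters and not a binding site.

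The windows of the 2 highest genes of each start class that RefSeq's table holds (GRCh38.p14, 247 of the 359 genes matched) show how far genes that came up together differ at the start. Capitals mark GC box and CCAAT letters on either strand (no TATAAA was found in any of the 8), and each is written in the direction of transcription. Those of the class at 0.15 µM are COL5A3 (chr19:10010455-10010754, minus strand) and ADGRG1 (chr16:57619488-57619787, plus strand), a window poor in CpG with 5 such pairs.
COL5A3: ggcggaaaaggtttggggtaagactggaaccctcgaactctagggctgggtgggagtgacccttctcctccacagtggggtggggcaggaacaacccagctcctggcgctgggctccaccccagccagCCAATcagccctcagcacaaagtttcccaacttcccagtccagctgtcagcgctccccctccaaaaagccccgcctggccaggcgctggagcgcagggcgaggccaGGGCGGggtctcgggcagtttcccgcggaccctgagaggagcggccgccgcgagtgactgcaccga
ADGRG1: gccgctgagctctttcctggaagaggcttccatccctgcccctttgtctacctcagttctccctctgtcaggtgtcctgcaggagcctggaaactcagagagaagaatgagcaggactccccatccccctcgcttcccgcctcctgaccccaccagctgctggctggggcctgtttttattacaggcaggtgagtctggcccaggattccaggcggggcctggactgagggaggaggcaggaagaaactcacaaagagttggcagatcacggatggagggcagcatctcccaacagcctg
Those of the class at 0.25 µM are CREB3L3 (chr19:4153381-4153680, plus strand), with 6 CpG pairs, and ARHGAP29 (chr1:94247697-94247996, minus strand), with 35.
CREB3L3: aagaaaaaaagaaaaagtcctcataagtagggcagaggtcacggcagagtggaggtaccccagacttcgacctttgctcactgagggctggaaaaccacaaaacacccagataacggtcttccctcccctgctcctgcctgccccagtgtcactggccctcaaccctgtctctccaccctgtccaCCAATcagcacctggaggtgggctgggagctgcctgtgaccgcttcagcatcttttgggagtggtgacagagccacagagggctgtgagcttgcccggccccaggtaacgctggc
ARHGAP29: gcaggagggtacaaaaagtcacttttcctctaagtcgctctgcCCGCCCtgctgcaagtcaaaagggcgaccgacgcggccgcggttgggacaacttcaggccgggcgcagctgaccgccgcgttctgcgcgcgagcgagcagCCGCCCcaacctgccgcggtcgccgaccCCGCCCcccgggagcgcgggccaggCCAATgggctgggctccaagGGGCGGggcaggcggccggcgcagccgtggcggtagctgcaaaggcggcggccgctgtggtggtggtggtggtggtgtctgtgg
Those of the class at 0.5 µM are WNT9B (chr17:46851333-46851632, plus strand), with 38 CpG pairs, and OLFM1 (chr9:135075255-135075554, plus strand), with 38.
WNT9B: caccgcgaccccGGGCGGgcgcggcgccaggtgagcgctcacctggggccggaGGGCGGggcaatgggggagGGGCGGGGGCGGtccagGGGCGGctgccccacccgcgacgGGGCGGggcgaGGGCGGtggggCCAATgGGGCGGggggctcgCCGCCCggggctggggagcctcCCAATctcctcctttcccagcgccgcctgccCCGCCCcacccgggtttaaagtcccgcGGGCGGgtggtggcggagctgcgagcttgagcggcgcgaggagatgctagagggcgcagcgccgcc
OLFM1: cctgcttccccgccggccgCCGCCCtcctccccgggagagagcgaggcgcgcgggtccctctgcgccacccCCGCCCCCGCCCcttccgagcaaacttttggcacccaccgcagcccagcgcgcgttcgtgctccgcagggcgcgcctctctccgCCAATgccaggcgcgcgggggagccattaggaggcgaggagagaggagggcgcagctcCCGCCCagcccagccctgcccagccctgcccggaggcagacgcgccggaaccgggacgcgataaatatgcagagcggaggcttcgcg
Those of the class at 1 µM are TAFA4 (chr3:68932498-68932797, minus strand), with 37 CpG pairs, and CCDC160 (chrX:134236932-134237231, plus strand), with 29.
TAFA4: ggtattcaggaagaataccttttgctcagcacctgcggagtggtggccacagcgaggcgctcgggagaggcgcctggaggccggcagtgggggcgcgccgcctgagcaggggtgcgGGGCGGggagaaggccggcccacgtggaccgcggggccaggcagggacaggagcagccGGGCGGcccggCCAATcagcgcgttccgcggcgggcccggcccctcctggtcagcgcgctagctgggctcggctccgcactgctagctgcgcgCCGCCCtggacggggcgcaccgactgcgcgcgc
CCDC160: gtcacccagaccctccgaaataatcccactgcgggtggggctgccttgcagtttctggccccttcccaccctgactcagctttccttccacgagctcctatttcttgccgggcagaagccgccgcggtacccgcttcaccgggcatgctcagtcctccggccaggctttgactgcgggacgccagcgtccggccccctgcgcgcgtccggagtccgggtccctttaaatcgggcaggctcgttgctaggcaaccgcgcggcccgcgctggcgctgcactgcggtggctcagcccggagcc
The windows of COL5A3 and CREB3L3 held 66.7% and 58.0% G and C, and that of WNT9B, with 11 GC boxes counted with overlaps, 79.7%.

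To describe where the genes are normally used, 18 lists of tissue genes were read against the silent genes. A total of 102 switched-on genes were on at least 1 list, 8.31% of the 1227 silent genes listed, and 257 were on none, 6.30% of the 4082 others. Both shares are near the 6.76% over all silent genes. The lists differed among themselves. The share switched on was highest for genes of cilia and neurons. It was 19.4% for motile cilia and airway (7 of 36), 18.9% for synapse and neuron structure (27 of 143) and 17.5% for ion channels of excitable cells (11 of 63). It was 12.8% for neurotransmitter and neuropeptide receptors (10 of 78), 12.7% for smooth muscle, fibroblast and matrix (7 of 55), 10.6% for epithelium, skin and hair (12 of 113) and 9.09% for retina, inner ear, taste and smell (6 of 66). It was 5.41% for oocyte and early embryo (2 of 37), 5.00% for cancer-testis antigens (2 of 40) and for endothelium and adipose (1 of 20), and 4.55% for skeletal muscle and heart (3 of 66). For peptide hormones it was 4.08% (2 of 49), for myeloid, mast and megakaryocyte genes 3.66% (3 of 82), for lymphoid genes 3.23% (2 of 62) and for liver, gut, pancreas and kidney 3.14% (5 of 159). It was 2.80% for testis and male germ cells (3 of 107), 2.17% for placenta, breast and steroid organs (1 of 46), and 0 of 13 for glia and myelin. The lists are short and were written with earlier results of these data known, so the order of neighbours in this ranking is a description. CPM grows with exon length, so a long gene reaches 2 CPM more easily. The part of length in these shares was not tested. NKX6-1 (synapse and liver lists) and VWF (myeloid and endothelium lists) are each counted on 2 lists.

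**Figure D4:**
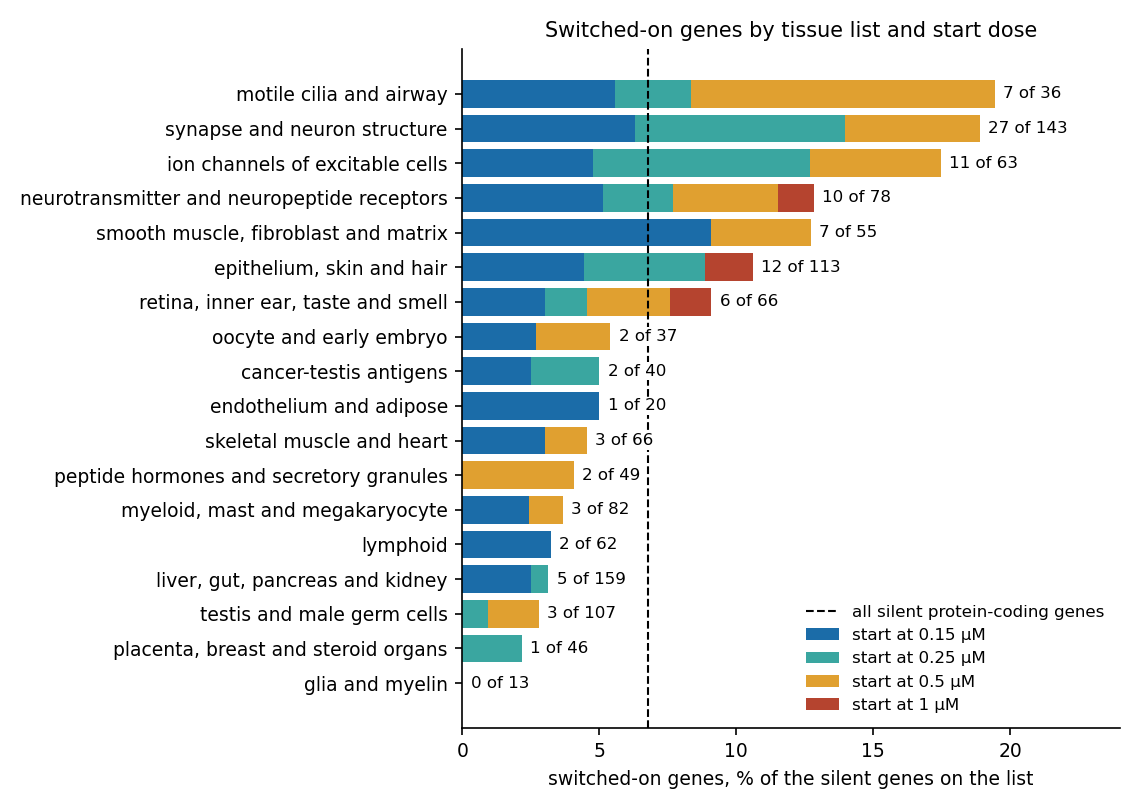
Switched-on genes as a percentage of the silent genes on each of 18 tissue lists (bars), split by start dose in colour, with the counts beside each bar. The dashed line marks the 6.76% over all 5309 silent protein-coding genes, and the bars for cilia (7 of 36), synapse (27 of 143) and ion channels (11 of 63) reach farthest to the right.

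The neuronal genes spanned transmitter handling, cytoskeleton and regulators. SLC1A6, the glutamate transporter of cerebellar Purkinje cells, was the highest of the 27 on the synapse list, with 3.01, 2.78 and 4.87 CPM at 0.15 µM, 14.9, 8.47 and 5.11 at 0.25 µM, 31.0, 20.4 and 16.6 at 0.5 µM and 22.6, 39.6 and 17.7 at 1 µM. Its doses did not overlap up to 0.5 µM, though 0.15 and 0.25 µM were only narrowly apart (4.87 against 5.11 CPM). That step was not called by edgeR's test (log2 fold change 1.27 ± 0.47, SE, adjusted p = 0.0948). DPYSL4, a protein of the family that guides axon growth, went from 2.3 ± 0.566 CPM at 0.15 µM to 23.1 ± 0.823 at 1 µM, and NPTX2, a secreted pentraxin that gathers glutamate receptors at synapses, from 0.429 ± 0.119 to 12.6 ± 2.29. Other members were the dendrite protein MAP2, the intermediate filaments PRPH and NEFM and the dopamine transporter SLC6A3. Regulators on this list were the homeodomain factors NKX6-1, LHX2 and ONECUT1 and the paired-box factor PAX2. They are not used by neurons alone: NKX6-1 is also on the list of liver, gut, pancreas and kidney, and PAX2 is also a factor of kidney. Of the 27 genes, 9 started at 0.15 µM, 11 at 0.25 µM and 7 at 0.5 µM. PRPH and NEFM share 71.5% and 26.4% of their exon length with a gene on the opposite strand, and since the counting's strand setting is not given in the sources used here, reads of such pairs may not be told apart.

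Among receptors and channels the highest were subunits of the brain. GABRD, the delta subunit of the GABA type A receptor, gave 12.3, 8.51 and 14.0 CPM at 0.15 µM, 23.5, 22.5 and 15.7 at 0.25 µM, 28.8, 24.7 and 19.5 at 0.5 µM and 28.6, 35.8 and 28.4 at 1 µM. GRM4, a metabotropic glutamate receptor, had means of 2.29 CPM at 0.15 µM and 9.3 at 1 µM. CACNA1G, a low-threshold calcium channel of neurons and heart pacemaker cells, had 10.5, 10.3 and 8.06 CPM at 0.15 µM, 14.9, 18.0 and 12.8 at 0.25 µM, 30.6, 32.2 and 27.1 at 0.5 µM and 35.1, 29.0 and 37.7 at 1 µM, and CACNG7, a regulator of AMPA-type glutamate receptors, went from 3.91 to 13.7 CPM. CACNA1G is among members that lie close behind an upstream gene on the same strand, with a gap of 4863 bases to SPATA20 (24.6 CPM at 1 µM). Over all 359 genes 65 had such a neighbour within 5000 bases, and in 20 of these cases the neighbour reached 2 CPM at 1 µM. The part of transcription running on from the upstream gene was not tested.

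Matrix, skin and cilia genes followed. ELN, elastin, gave 10.5, 7.29 and 14.2 CPM at 0.15 µM, 22.5, 18.2 and 16.4 at 0.25 µM, 14.5, 14.0 and 16.4 at 0.5 µM and 13.2, 18.8 and 15.7 at 1 µM, so its highest mean was at 0.25 µM. KLK4 went from 7.94 ± 0.447 CPM at 0.15 µM to 30.1 ± 2.5 at 1 µM, and its neighbour KLK5, a protease of the outer skin, also started at 0.15 µM. KRT17, a keratin of basal epithelial cells, stood at 3.02 CPM at 0.15 µM and 11.0 at 1 µM. Of the 7 cilia genes, TPPP3, a tubulin-binding protein of ciliated cells, was highest at 19.5 ± 5.6 CPM, and DNAH2, a heavy chain of the ciliary motor, reached 8.74 ± 1.3. Of the cilia genes 4 of 7 started at 0.5 µM, against 27.0% of all 359. Of the epithelial genes 10 of 12 started at 0.15 or 0.25 µM, against 68.8% of all 359, and the other 2, KRT86 and PRSS22, at 1 µM.

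On the lists of the germ line, hormones, blood and muscle, the shares switched on lay below the 6.76% over all silent genes, some near it. The lists hold 102 of the 359 genes, and genes outside them, such as CCNA1 and IRF8, are not counted in these shares. MAGEA11, a cancer-testis antigen, gave 4.93, 5.18 and 5.01 CPM at 0.15 µM, 8.81, 8.39 and 11.4 at 0.25 µM, 25.0, 23.2 and 26.4 at 0.5 µM and 20.4, 26.0 and 21.4 at 1 µM, and PAGE4, the other listed antigen, reached 2.94 CPM. Among germ cell genes, TDRD6, a protein of the germ cell granule, reached 3.82 CPM and RAD21L1, a meiotic cohesin, 2.46. Of oocyte and embryo genes, NLRP4, an oocyte protein, reached 5.1 CPM and TFAP2C, a factor of trophoblast and primordial germ cells, 2.43. The heart factor HAND1 reached 3.72 CPM and the fast muscle protein MYBPC2 3.36. The hormones IGF2 (2.96 CPM) and GAST, gastrin (2.3 CPM), were low, and 43.2% of the exon length of IGF2 is also annotated to another gene on its strand. Of blood and vessel genes, MMP9, a gelatinase of neutrophils, stood at 4.9 ± 1.7 CPM and VWF, the clotting factor of endothelium and megakaryocytes, at 3.24 ± 1.18. Of lymphoid genes, CD79B, a chain of the B cell receptor, stood at 3.07 ± 0.332 CPM. USH1C, the harmonin of inner ear and retina, reached 7.63 CPM and GUCY2D, the photoreceptor guanylate cyclase, 8.2. CYP4F22, an omega-hydroxylase of skin lipids, reached 22.8 CPM and ALPP, the placental alkaline phosphatase, 6.4. GUCY2D and ALPP share 25.8% and 22.0% of their exon length with a gene on the opposite strand.

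Gene families, counted by the roots of their symbols after the members were known, differed in the same uneven way. WNT ligands gave 6 of 11 silent members (WNT9A, WNT9B, WNT16, WNT7B, WNT8B and WNT3A), calcium channel gamma subunits 3 of 7, potassium channel subunits 6 of 36, and homeobox and paired-box factors 12 of 79. Kallikreins gave 3 of 9, keratins 4 of 48, lipoxygenases 3 of 5, CYP4F enzymes 3 of 6 and PNMA genes 3 of 4. Over all silent genes the share was 6.76%, and several families lay near or below it. Keratins stood at 8.33%, SLC transporters gave 10 of 104, collagens 1 of 11, MAGE genes 1 of 12, ZNF genes 5 of 62 and protocadherins 2 of 43. None of 359 silent olfactory receptors, 92 keratin-associated proteins, 39 beta-defensins, 13 interferons alpha and 11 taste receptors reached 2 CPM at 1 µM. The part of exon length in these family counts was not tested. By chromosome, 36 of the 359 lay on chromosome 19, where 11.0% of the silent genes were switched on. Of the 359, 36 (10.0%) had another switched-on gene as the next protein-coding gene on the chromosome, against 4.24% of the silent genes that stayed low. The 18 adjacent pairs included WNT9A and WNT3A (span of 143 kb on chromosome 1), CACNG5 and CACNG4 (198 kb, chromosome 17), KLK4 and KLK5 (46.7 kb, chromosome 19), KRT16 and KRT17 (15.1 kb, chromosome 17) and NPTX2 and TMEM130 (253 kb, chromosome 7), and members of a pair did not always share a start dose.

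Changes between the doses in between were fitted next. The libraries at 0.15, 0.25 and 0.5 µM did not enter the choice of the genes, but genes chosen as near 0 untreated and at 2 CPM or more at 1 µM have to climb somewhere between, so a rise is largely set by that choice. The counts over all genes tested stand beside theirs as background, and nothing is read from the excess of higher genes or from the low share of lower ones. The spread was estimated over all 15 libraries. From 0.15 to 0.25 µM, 143 of the 359 genes rose (39.8%, against 4.96% of the 23711 genes tested) and 0 fell (7.32% of all genes tested), by edgeR's quasi-likelihood test at a Benjamini-Hochberg adjusted p under 0.05. At an unadjusted p under 0.05 the count of lower genes was also 0, and DESeq2 gave 0 as well. The choice of the genes leaves little room for a fall, so these counts add no support. The median log2 fold change was 0.99 over the 359 genes and 0.02 over all genes tested, and 345 of the 359 values were positive. All 359 genes passed the filter on low counts, which their level at 1 µM let them do. The count of higher genes moved to 88 without the first or without the second library at 0.15 µM, to 95 without the second at 0.25 µM, to 222 with DESeq2, and to 182 without the third libraries at both 0.25 and 0.5 µM. Largest were the changes of GOLGA6L24, with a log2 fold change of 3.55 ± 0.77 (SE, adjusted p = 0.00676) on means of 0.0494 and 0.674 CPM and from a family of near-identical copies. ENPP2, the enzyme autotaxin that makes lysophosphatidic acid, followed with 3.06 ± 0.56 (SE, adjusted p = 0.0021), and PNMA8B with 2.74 ± 0.49 (SE, adjusted p = 0.00173).

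From 0.25 to 0.5 µM, 162 genes rose (45.1%, against 14.4% of all genes tested) and 10 fell (2.79%, against 16%). The median log2 fold change was 0.77, against 0.02 over all genes tested, and 297 of 359 values were positive. ELAVL3 rose by 3.80 ± 0.39 (SE, adjusted p = 1.24e-06) on the log2 scale, IRF8, a transcription factor of myeloid and B cells that was on none of the lists, by 3.72 ± 0.59 (SE, adjusted p = 1.75e-04), from libraries at 0.60, 0.382 and 0.289 CPM to 3.12, 4.05 and 8.63, and IRGM by 3.68 ± 0.33 (SE, adjusted p = 1.17e-07). With the third libraries at 0.25 and 0.5 µM left out, 147 genes rose and 11 fell. Over the whole span from 0.15 to 0.5 µM, which shares its libraries with both steps, 272 genes rose (75.8%, against 22.0%) and 5 fell (1.39%, against 23.0%), with a median of 1.80 against 0.04. In that span IRGM rose by 6.29 ± 0.41 (SE, adjusted p = 8.46e-10), GOLGA6L24 by 5.80 ± 0.71 (SE, adjusted p = 4.01e-06) and IRF8 by 5.65 ± 0.71 (SE, adjusted p = 9.43e-06). The sizes for GOLGA6L24 and IRF8 depend on counts near 0 at 0.15 µM and are no measure of the true fold. In this span the value for GOLGA6L24 was 9.34 without the second library at 0.15 µM and that for IRF8 was 10.1 without the first, and from 0.15 to 0.25 µM that for GOLGA6L24 was 7.09 without the second. Called higher in both steps were 85 genes, in the first with no call in the second 54, in the second with no call in the first 77, and 76 genes had no call in any of the 3 differences.

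**Figure D5:**
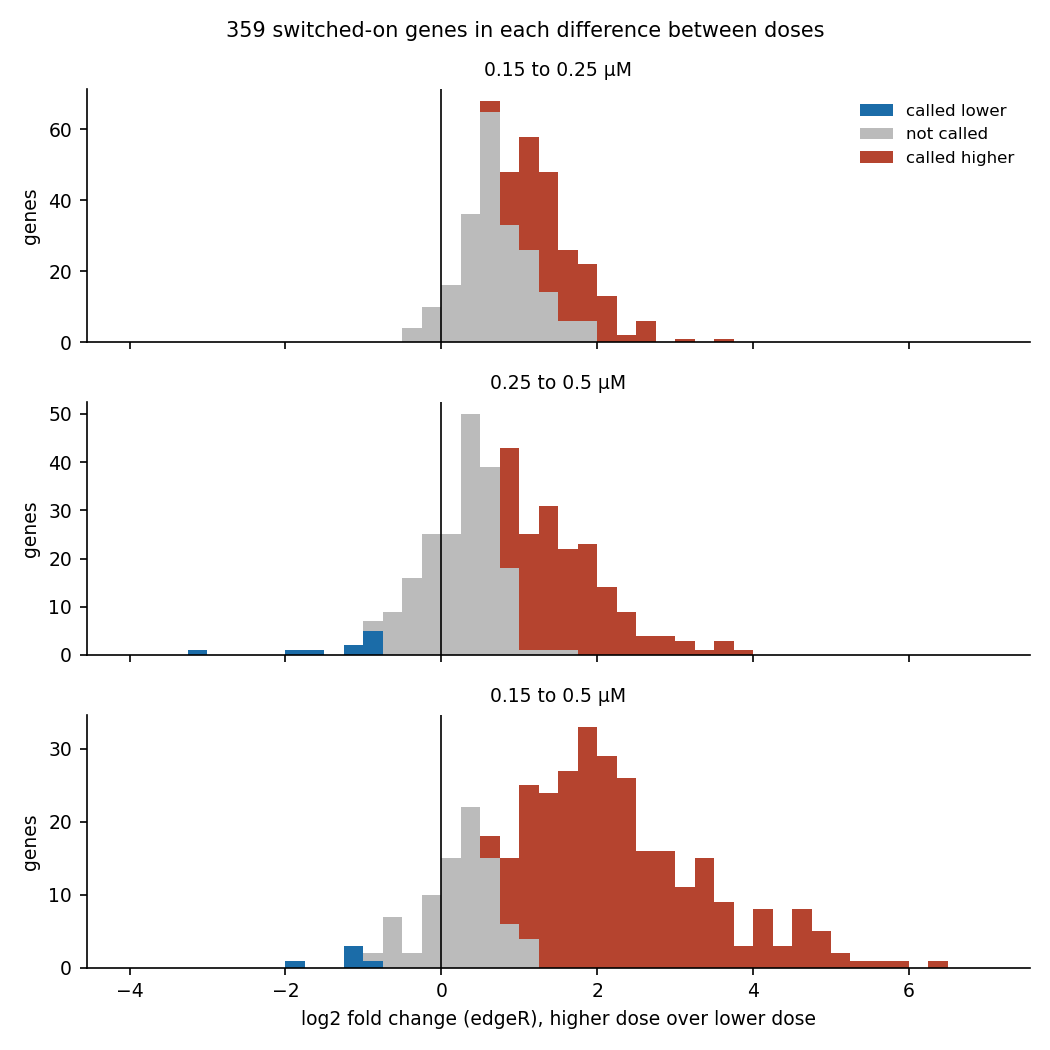
Distribution of the log2 fold changes (horizontal axis, edgeR) of the 359 switched-on genes between 0.15 and 0.25 µM, 0.25 and 0.5 µM, and 0.15 and 0.5 µM (vertical axes, number of genes per bin of 0.25). Genes called higher are red (143, 162 and 272), genes called lower blue (0, 10 and 5) and the rest grey.

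By list, the step from 0.25 to 0.5 µM raised 6 of 7 cilia genes, 7 of 11 channels and 15 of 27 synapse genes. It raised 4 of 10 receptors, 2 of 12 epithelial genes and 1 of 7 matrix genes. The share was 45.1% over all 359 genes and 14.4% over all genes tested. In the same order, the step from 0.15 to 0.25 µM raised 1 of 7, 3 of 11 and 12 of 27, then 3 of 10, 4 of 12 and 2 of 7. Its shares were 39.8% over all 359 genes and 4.96% over all genes tested. The epithelial genes held a median of 86.9% of their level at 1 µM at 0.25 µM and the matrix genes 85.6%, against 47.6% for cilia, 46.95% for channels and 54.7% for synapse genes. Whether these lists differ was not tested.

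The 10 genes that fell from 0.25 to 0.5 µM were CDH22, FIGNL2, FXYD6, HTR6, JPH4, NPY1R, PAX2, SLC32A1, SLCO2A1 and YAP1. In each the 3 libraries at 0.25 µM lay above the 3 at 0.5 µM. The genes were picked by a test of these same libraries, so this separation adds no support to the calls. CDH22, a cadherin of the brain, FIGNL2, HTR6, a serotonin receptor, PAX2, a transcription factor of kidney and brain, and YAP1, the co-activator held back by Hippo signalling, are named here after their values were seen. SLCO2A1, which carries prostaglandins into cells, gave 7.39, 7.63 and 7.04 CPM at 0.15 µM, 15.6, 19.2 and 26.4 at 0.25 µM, 1.14, 1.11 and 4.28 at 0.5 µM and 1.92, 3.62 and 3.4 at 1 µM, a log2 fold change of -3.12 ± 0.38 (SE, adjusted p = 6.08e-06). NPY1R, a receptor of neuropeptide Y, gave 8.45, 10.1 and 6.06 CPM at 0.15 µM, 15.9, 18.7 and 41.4 at 0.25 µM, 2.23, 3.81 and 14.7 at 0.5 µM and 3.84, 4.43 and 4.36 at 1 µM, a change of -1.78 ± 0.47 (SE, adjusted p = 0.00973). The third library was the highest of its group at both 0.25 and 0.5 µM for these genes, and without the third library at 0.25 µM the change of NPY1R was -1.32 (adjusted p = 0.0567), while without the third at 0.5 µM it was -2.75. SLC32A1, which loads GABA and glycine into synaptic vesicles, gave 14.2, 10.6 and 14.3 CPM at 0.15 µM, 20.8, 24.2 and 16.6 at 0.25 µM, 7.11, 7.51 and 4.78 at 0.5 µM and 7.79, 6.19 and 10.7 at 1 µM, a change of -1.50 ± 0.29 (SE, adjusted p = 7.37e-04). FXYD6, a regulator of the sodium pump, had 5.81, 5.48 and 7.72 CPM at 0.15 µM, 6.38, 7.17 and 7.32 at 0.25 µM, 2.02, 3.22 and 2.95 at 0.5 µM and 3.33, 3.34 and 3.75 at 1 µM, and its libraries at 0.15 and 0.25 µM overlapped. JPH4, a neuronal protein that ties the endoplasmic reticulum to the cell membrane, had 12.9, 10.1 and 9.51 CPM at 0.15 µM, 12.5, 8.62 and 9.44 at 0.25 µM, 4.84, 5.24 and 5.34 at 0.5 µM and 5.72, 5.31 and 6.47 at 1 µM. Its libraries at 0.15 and 0.25 µM also lay at one level, and all 6 were above those at 0.5 µM. From 0.15 to 0.5 µM, SLCO2A1 fell by 1.83 ± 0.37 (SE, adjusted p = 5.79e-04) on the log2 scale, FXYD6 by 1.23 ± 0.27 (SE, adjusted p = 0.00105) and JPH4 by 1.08 ± 0.25 (SE, adjusted p = 0.00169). Of the 10 genes, HTR6, PAX2, SLCO2A1 and YAP1 had first risen from 0.15 to 0.25 µM. The count of 10 was 6 without the first library at 0.25 µM, where JPH4 was no longer called (-0.63, adjusted p = 0.0981), and the count of 5 over the whole span was 8 without the second library at 0.15 µM.

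Means rose through 0.15, 0.25 and 0.5 µM in 279 of the 359 genes and were higher at 0.25 than at 0.5 µM in 78, more than 2-fold so in 9. Between 0.5 and 1 µM the median ratio of the means was 1.02, with 352 genes within 1.5-fold, and without the third library at 0.5 µM it was 1.08, with 339 genes. The highest mean fell on 1 µM in 148 genes, on 0.5 µM in 142, on 0.25 µM in 64 and on 0.15 µM in 5. Without the third library at 0.5 µM, it fell on 1 µM in 196 and on 0.5 µM in 92. Among genes at 10 CPM or more at 0.15 or 1 µM, the ratio of the mean at 1 µM to that at 0.15 µM was highest for IRGM (77.4), NPTX2 (29.5) and CREB3L3 (23.7) and lowest for JPH4 (0.537), SLC32A1 (0.632) and SEPTIN3, a septin of neurons (1.25). After their start, 10 genes were back under 2 CPM at a higher dose. The choice at 1 µM also missed genes of this kind: of the 4950 silent genes that stayed low, 81 reached a mean of 2 CPM at a lower dose, 67 of them at 0.25 µM.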

How the data were processed

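PolyA RNA of 15 K-562 cultures was sequenced with a directional library kit. The deposited counts per gene were made by the authors by trimming reads with Trim Galore 0.6.10 and Trimmomatic, aligning to hg38 with HISAT2 2.2.1, handling alignments with SAMtools 1.21 and counting with featureCounts 1.5.3 on GENCODE genes. They are whole numbers that were not normalized. The strand setting and the treatment of read pairs in counting are not given in the sources used here. The authors' FPKM values, rescaled from the same counts, were not used.

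CPM used library totals. Gene types, exon lengths and starts were taken from GENCODE 44, and printed sequences from RefSeq. Steps between doses were fitted on the whole table with edgeR 4.0.16 (filterByExpr, TMM scaling, robust quasi-likelihood test, 1 mean per dose, Benjamini-Hochberg adjustment over 23711 genes, threshold 0.05) in R 4.3.3, with DESeq2 1.42.0 as an alternative. On counts simulated for the step from 0.25 to 0.5 µM, run on 22199 genes, 200 of 200 genes changed 4-fold were recovered, with 7 false calls. The changed genes were drawn from those with a mean above 2 CPM, and every gene was given the same spread. This recovery therefore does not describe lower genes or libraries that stand apart. Counts of replicate pairs differed by more than sampling noise (chi-square per degree of freedom from 5.85 up), so all 15 libraries were kept apart. Tables and figures used Python 3.11.15, pandas 2.3.3, NumPy 2.4.6, SciPy 1.17.1 and matplotlib 3.10.9.

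The members, tissue lists and tests were chosen with earlier results of these data known, and the gene families after the members were known. Genes were named by rule: the 5 highest at 1 µM in each start class, the 2 highest of each tissue list, the 3 highest and 3 lowest ratios between 1 and 0.15 µM among genes of at least 10 CPM in either group, the 3 largest called changes in each direction per step, and the 2 genes on either side of each limit. Some genes that the rule names are not reported here. Genes named besides these in lists, families and adjacent pairs, and among the 10 that fell, were chosen after their values were seen. Replicate numbers come from the labels. Deviations of same-numbered libraries at 0.25 and 0.5 µM correlated with r from 0.266 to 0.579, the highest for the third libraries. For other numbers r ran from -0.4145 to 0.2364. The labels do not state whether numbers pair these doses. Same-numbered libraries at 0.15 µM correlated with neither dose (-0.048 to 0.033). Alternatives were other scalings, no filter, DESeq2, the replicate block, fits of only the 6 libraries compared, other limits and each library left out.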

Additional observations from a re-analysis of the deposited data

How the results depend on the processing

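With 0 untreated counts required, 209 genes were switched on, with a limit of 1 CPM 628, with 5 CPM 141, and with each library left out in turn 351 to 460. The limit of 3 untreated counts was kept when an untreated library was left out, which made it looser. Those cases gave 443 to 460 genes, and leaving out a library at 1 µM gave 351 to 368. In the ranges that follow, the highest values at 0.15, 0.25 and 0.5 µM also came from leaving out an untreated library. Leaving out each library gave 123 to 183 starters at 0.15 µM, 115 to 147 at 0.25 µM, 86 to 113 at 0.5 µM and 13 to 26 at 1 µM, the last being 26 without the third library at 0.5 µM and 27 without the third libraries at both 0.25 and 0.5 µM, an alternative chosen after seeing the data. A start at 1 CPM in each library gave 58 starters at 0.5 µM and 3 at 1 µM, a start at more than 3 counts gave 359 at 0.15 µM and 0, 0 and 0 later, and a start at 10% of the level at 1 µM gave 310, 45, 4 and 0. From 0.15 to 0.25 µM, the genes that rose numbered 88 to 173 with each library left out (88 without the first or the second at 0.15 µM, 95 without the second at 0.25 µM) and 222 with DESeq2, and 0 to 0 fell. From 0.25 to 0.5 µM, 135 to 165 rose and 6 to 10 fell (6 without the first at 0.25 µM), and from 0.15 to 0.5 µM, 261 to 278 rose and 5 to 8 fell (8 without the second at 0.15 µM). Scaling by library totals moved the median of all genes to 0.19 in the first step and -0.12 in the second, and 171 and 137 of the switched-on genes then rose. With the replicate block, 141, 157 and 271 genes rose and 0, 10 and 5 fell, and with the block among only the 6 libraries at 0.25 and 0.5 µM, also added after seeing the data, 188 rose and 15 fell. Without the third libraries at both doses 182, 147 and 283 rose.

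For single named genes, 1634 of 1680 values under alternatives kept direction and call, 46 lost the call and 0 reversed. Only results called in the main fit were checked, and the differences share libraries. Many alternatives left out a library that is not part of the difference, so a high share kept is partly set in advance. The losses concerned the step from 0.15 to 0.25 µM in CCDC160, SLC19A3, MT1E, OLFM1, SLCO2A1 and KRT86, and NPY1R, JPH4 and ADGRG1 in other differences. NPY1R lost its call from 0.25 to 0.5 µM with only the 6 libraries compared (edgeR's adjusted p = 0.0609) and without the third library at 0.25 µM (0.0567). Genes under about 2 CPM rest on few counts per library, and the cause of each lost call was not tested.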

Other observations

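Of the 4950 silent protein-coding genes that stayed under 2 CPM at 1 µM, 1729 had 0 counts in the 3 libraries at 1 µM, 2499 had more than 3 counts and 629 had means from 0.5 to 2 CPM. Of the 81 that reached 2 CPM at a lower dose, 23 did so at 0.15 µM, 67 at 0.25 µM and 20 at 0.5 µM, some at more than 1 dose. Chromosome 22 had the highest share of silent genes switched on (11 of 92, 12.0%) and chromosome 21 the lowest among the autosomes (2 of 90, 2.22%). Sulfotransferases of heparan and other carbohydrates gave 4 of 11 silent members (HS3ST6, CHST8, HS6ST3 and CHST1), kinesins 3 of 6, adhesion G protein-coupled receptors 3 of 11 and ABC transporters 3 of 10. The share over all silent genes was 6.76%, and these families were picked after the members were known. All 4 switched-on GOLGA6 genes of 11 silent ones started at 0.5 µM, and near-identical copies can share their reads.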
